A study of Mus musculus with 48 samples.

Results

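Long mRNAs reported as bound by FMRP, the RNA-binding product of Fmr1, were followed through 48 mouse RNA-seq libraries. The libraries came from eye cells and from brain targets of retinal ganglion cell axons. The set holds 40 genes taken by symbol from a list of reported FMRP-bound transcripts, out of 54331 genes in the tables. Their values in these libraries were not the rule of choice, but earlier results of these data were known when it was made. All 40 were found. By role they are 14 genes of chromatin and transcription (Kmt2a, Kmt2d, Spen, Arid1a, Arid1b, Chd4, Chd5, Ep300, Crebbp, Ncor1, Med13l, Hivep2, Smarca4, Smarca2), 7 of the cytoskeleton and membrane scaffold (Ank2, Ank3, Macf1, Apc, Sptan1, Sptbn1, Trio), 6 of ubiquitin and protein turnover (Huwe1, Herc1, Herc2, Ubr4, Usp9x, Wdfy3), 6 of growth signalling (Nf1, Tsc2, Mtor, Mink1, Agap2, Nisch), 5 adhesion and surface receptors (Adgrb1, Adgrb2, Lrp1, Celsr2, Tenm4) and 2 RNA granule proteins (Prrc2a, Prrc2b).

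FMRP binds mRNAs largely along their coding sequence and slows the ribosomes on them, and its loss causes fragile X syndrome. Its reported targets in brain are enriched for very long mRNAs, among them chromatin regulators, cytoskeletal scaffolds and components of growth signalling. Retinal ganglion cells are the projection neurons of the retina, whose axons end, among other sites, in the lateral geniculate nucleus (LGN) and superior colliculus (SC). Their axons carry mRNAs and ribosomes, so an mRNA can be present in the axon with or without being translated there.

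Ethynyl uridine (EU), injected into the vitreous of the eye, marks RNA made in retinal cells, and EU libraries hold the marked RNA purified from SC, LGN or eye cells. Axon-TRAP libraries hold ribosome-bound RNA. All libraries come from wild type, naïve mice at P14 unless named otherwise. SC gave 5 EU and 5 TRAP libraries, LGN gave 2 EU and 3 TRAP libraries, and SC at P10 gave 3 of each. The other SC EU groups, of 3 libraries each, were P10 followed by a 4-day chase, 8 weeks of age, the genotype fmr1ko at P14, and the genotype sarm1ko, axotomized, at P14 followed by a 7-day chase. The genotype fmr1ko also gave 3 SC TRAP and 3 FACS libraries. Eye samples of wild type mice were FACS-sorted (3), immunopanned (3) and immunopanned after EU labelling (3). The labels name no strain, knockout allele or driver of the tagged ribosome. Each EU sample pooled the SC of 3 animals, and where nothing says that libraries are separate animals or pools, p-values measure only the spread between libraries. In such bulk samples fewer cells or axons of a kind and less RNA in each cannot be told apart.

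The longest annotated transcripts of the 40 genes ran from 4994 nt (Mink1) to 23495 nt (Macf1), with a median of 10280.5 nt against 3464 nt for the other 14164 protein-coding genes, of which 2.41% reached the median of the 40. The coding sequences had a median of 7428 nt against 1392 nt. GC content of the longest transcript ran from 40% (Usp9x) to 63.6% (Adgrb1), with a median of 52.9% against 50.1%. The tetranucleotides TGGA and AGGA, a motif reported for FMRP crosslinking, were counted on the sense strand of the coding sequence, with overlapping matches each counted. Their density was not high in the set. The median was 16 matches per kb against 16.3 in the other coding genes, 52.3% of which were at or above the median of the 40, and against 16.2 among the 3381 other coding genes at least as long as Mink1. The 60-base coding stretches with the most matches in the member of highest density of each role are shown because they are where such a motif is most crowded in these mRNAs. All are exonic coding sequence of GENCODE M21 on GRCm38 (mm10), plus strand, with each match in capitals.
Chd5, chr4:152360838-152360897: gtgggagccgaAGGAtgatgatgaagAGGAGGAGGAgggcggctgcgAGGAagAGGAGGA
Sptan1, chr2:30021202-30021261: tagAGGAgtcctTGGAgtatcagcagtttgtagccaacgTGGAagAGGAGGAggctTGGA
Herc2, chr7:56177920-56177979: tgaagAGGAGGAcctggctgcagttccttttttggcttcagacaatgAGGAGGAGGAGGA
Mink1, chr11:70609610-70609669: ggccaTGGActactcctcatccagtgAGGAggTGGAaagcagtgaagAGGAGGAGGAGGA
Adgrb1, chr15:74544959-74545018: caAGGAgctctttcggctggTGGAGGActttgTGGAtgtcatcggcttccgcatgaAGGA
Prrc2b, chr2:32200878-32200937: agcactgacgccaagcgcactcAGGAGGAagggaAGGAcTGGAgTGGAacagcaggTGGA
These stretches hold 7 matches in Chd5 and Mink1, 6 in Sptan1, Herc2 and Prrc2b and 5 in Adgrb1. Of 582274 tiled 60-base windows of all coding sequences, 59.8% held at least 1 match, 0.492% at least 5, 0.157% at least 6 and 0.0720% at least 7. The printed stretches are the best of all positions in chosen genes, so these shares do not tell how rare such stretches are. A match is a description of letters and not a binding site.

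Several libraries stood apart. Total estimated counts ran from 2.56e+06, in SC EU replicate 1, to 4.83e+07. Of the 3 SC TRAP libraries labelled fmr1ko, replicate 2 held 14 rod photoreceptor genes at a summed 148397 CPM (counts scaled to equal library totals) and its closest library by rank correlation was a FACS library, and replicates 1 and 3 held 9 nuclear long noncoding RNAs (led by Meg3 and Malat1) at 9984 and 11490 CPM, against 11.8 to 181 in the 11 wild type TRAP libraries and 3947 to 34590 in the 22 EU libraries of SC and LGN. Fmr1 itself was not lower in the fmr1ko EU libraries (9.93, 4.91 and 13.2 normalised CPM, against 1.22, 1.64 and 0.452 in wild type), so these libraries are named by their label only. FACS libraries held the rod genes at 114092 to 206220 CPM and 15 retinal ganglion cell genes (led by Gap43 and Nefl) at 62.2 to 179 CPM, and immunopanned EU replicate 1 held the rod genes at 142289 CPM. Immunopanned libraries without EU capture held the 40 mRNAs at a summed TPM of 48.3 to 129, and their replicate 1 resembled neither of the others. A ribosomal RNA gene, CT010467.1, took up to 485023 CPM in the sarm1ko libraries. In wild type TRAP libraries 14 oligodendrocyte genes summed to 2564 to 38687 CPM, and in EU libraries of SC and LGN to 1872 to 21086 CPM.

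**Figure D1:**
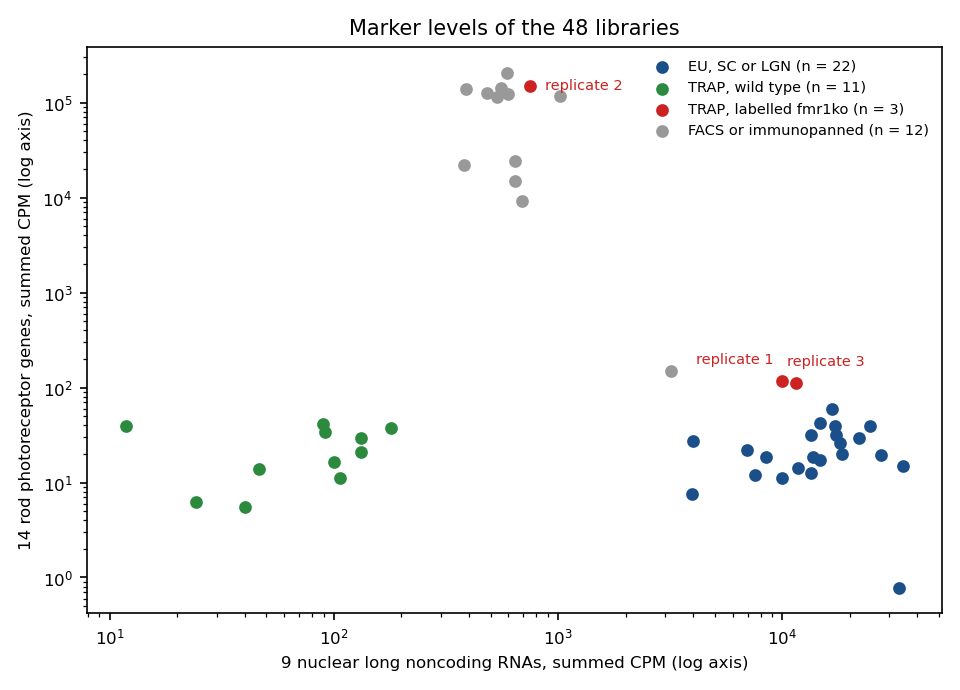
Summed CPM of 14 rod photoreceptor genes (vertical, log axis) against 9 nuclear long noncoding RNAs (horizontal, log axis), with 1 point a library and colours for the kind of library. The 11 wild type TRAP libraries lie at 181 CPM or below on the horizontal axis, while TRAP replicates 1 and 3 labelled fmr1ko lie with the EU libraries and replicate 2 with the eye samples.

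Levels per length are given in TPM. In SC EU at P14 Nisch, a scaffold that inhibits Rac signalling, had the highest median of the 40 (328 TPM, lowest 184, highest 520, n = 5), followed by Sptan1, the alpha chain of brain spectrin (200 TPM, 139 to 797), and Smarca2, an ATPase of the BAF chromatin remodeller (182 TPM, 132 to 962). The ranges of these 3 overlapped. Kmt2d, a histone methyltransferase, was lowest (1.01 TPM, 0.135 to 2), below Usp9x, a deubiquitinase (2.19 TPM, 0.395 to 6.43). In SC TRAP at P14 Nisch was again first (236 TPM, 159 to 392) and the acetyltransferase gene Ep300 last (0.396 TPM, 0.154 to 0.881). The summed level of the 40 was 1954 to 6147 TPM in SC EU at P14, 2153 to 3119 in SC EU at P10, 4915 and 5280 in LGN EU, 1095 to 2564 in SC TRAP at P14, 686 to 989 in SC TRAP at P10 and 2029 to 2462 in LGN TRAP. The TRAP sums at P10 lay below every EU sum of that age, whereas at P14 in SC the ranges overlapped. Immunopanned EU libraries held 252 to 507 TPM and wild type FACS libraries 1012 to 1516 TPM.

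**Figure D2:**
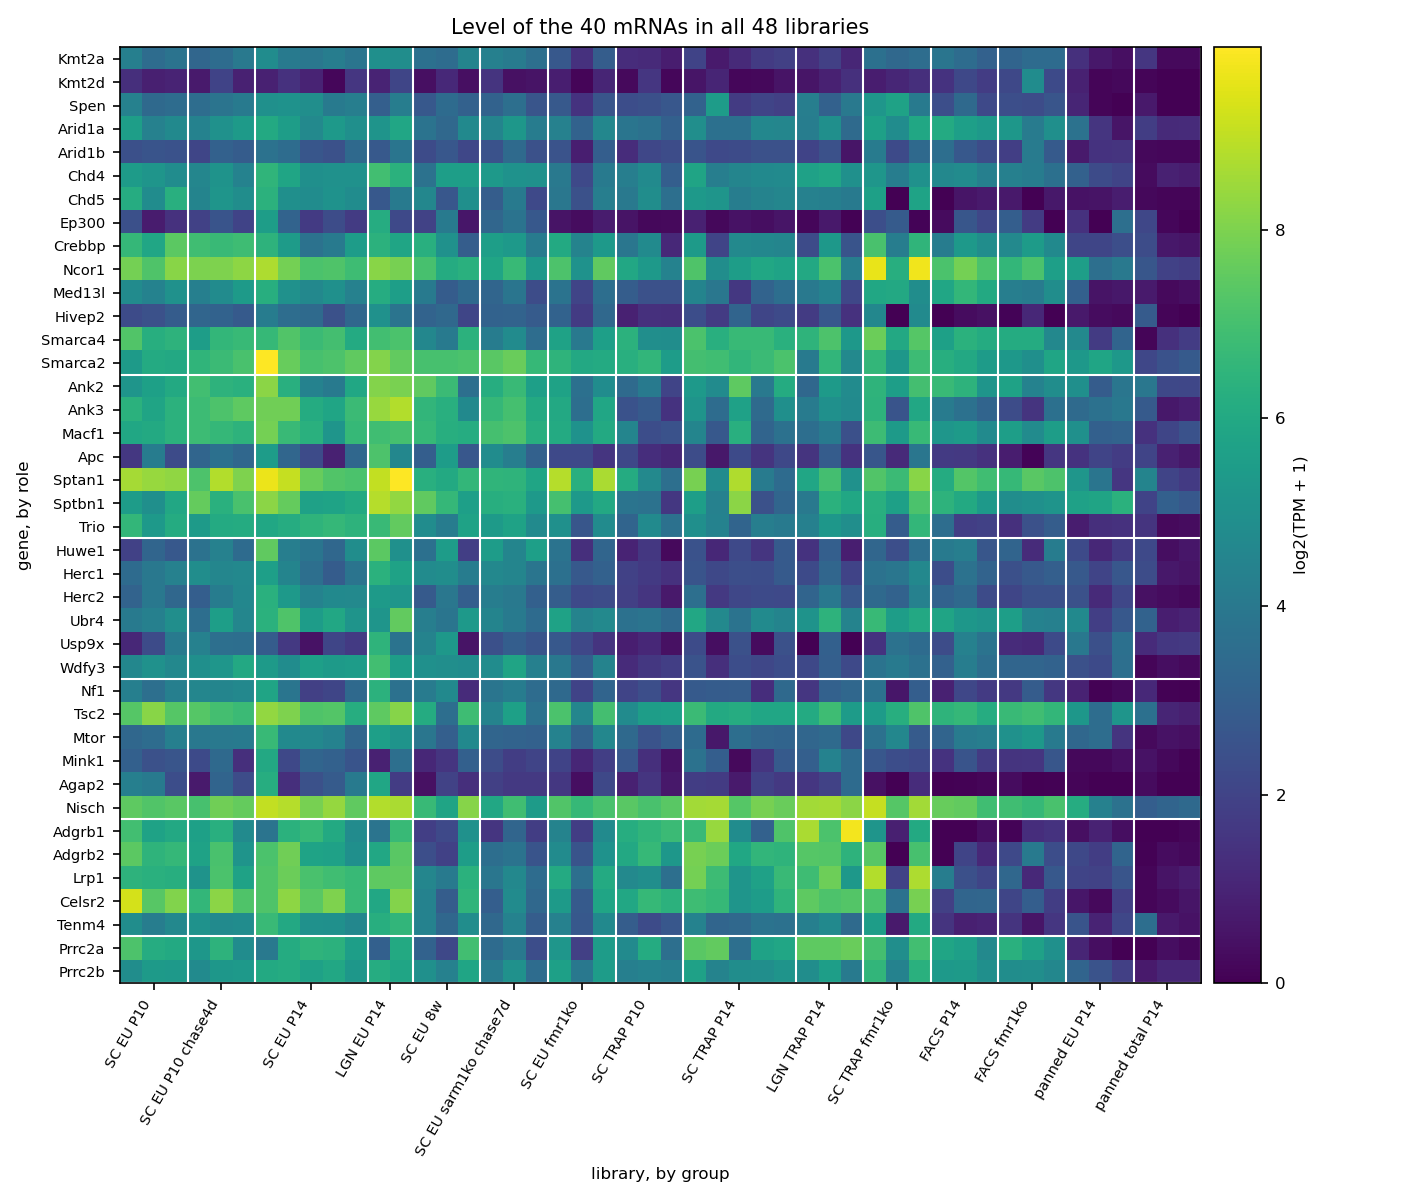
Level of each of the 40 mRNAs (vertical, by role) in each of the 48 libraries (horizontal, by group) as log2(TPM + 1), with brighter colours for higher levels. Many genes are brighter in EU columns of SC and LGN at P10 and P14 than in the TRAP columns, and most are darkest in the immunopanned columns at the right.

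Ribosome-bound RNA was compared with EU RNA in 3 sets of libraries that share none, so each is a separate measurement of the same ratio. The first uses SC at P14 (replicates 3 to 5 of each group), the second SC at P10, and the third the remaining P14 libraries of LGN and SC, with the region as a term in the fit. Those come from a separate series of title codes. In it, codes of SC and LGN libraries share first digits, whose meaning the labels do not give. Adgrb1 in EU followed that digit, at 18.1 CPM in SC and 17.0 in LGN for digit 1, and 90.2 and 91.1 for digit 2. The fit has no term for the digit, so its p-values may be too small if such libraries share animals. A gene is called where its Benjamini-Hochberg adjusted p in edgeR's quasi-likelihood F test is under 0.05. In SC at P14, 13 of the 40 mRNAs were lower in TRAP and 1 was higher, against 8.55% lower and 5.73% higher of the 16277 genes tested, and the median log2 fold change of the 40 was -0.87 against -0.01 for all genes. At P10, 16 were lower and 0 higher, against 11% and 6.64% of 15733 genes, with medians of -1.26 and -0.08. DESeq2 also called 0 higher at P10, and 0 were higher at an unadjusted p under 0.05. In the LGN and SC libraries 16 were lower and 3 higher, against 10.6% and 6.53% of 15348 genes, with medians of -1.38 and -0.07.

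**Figure D3:**
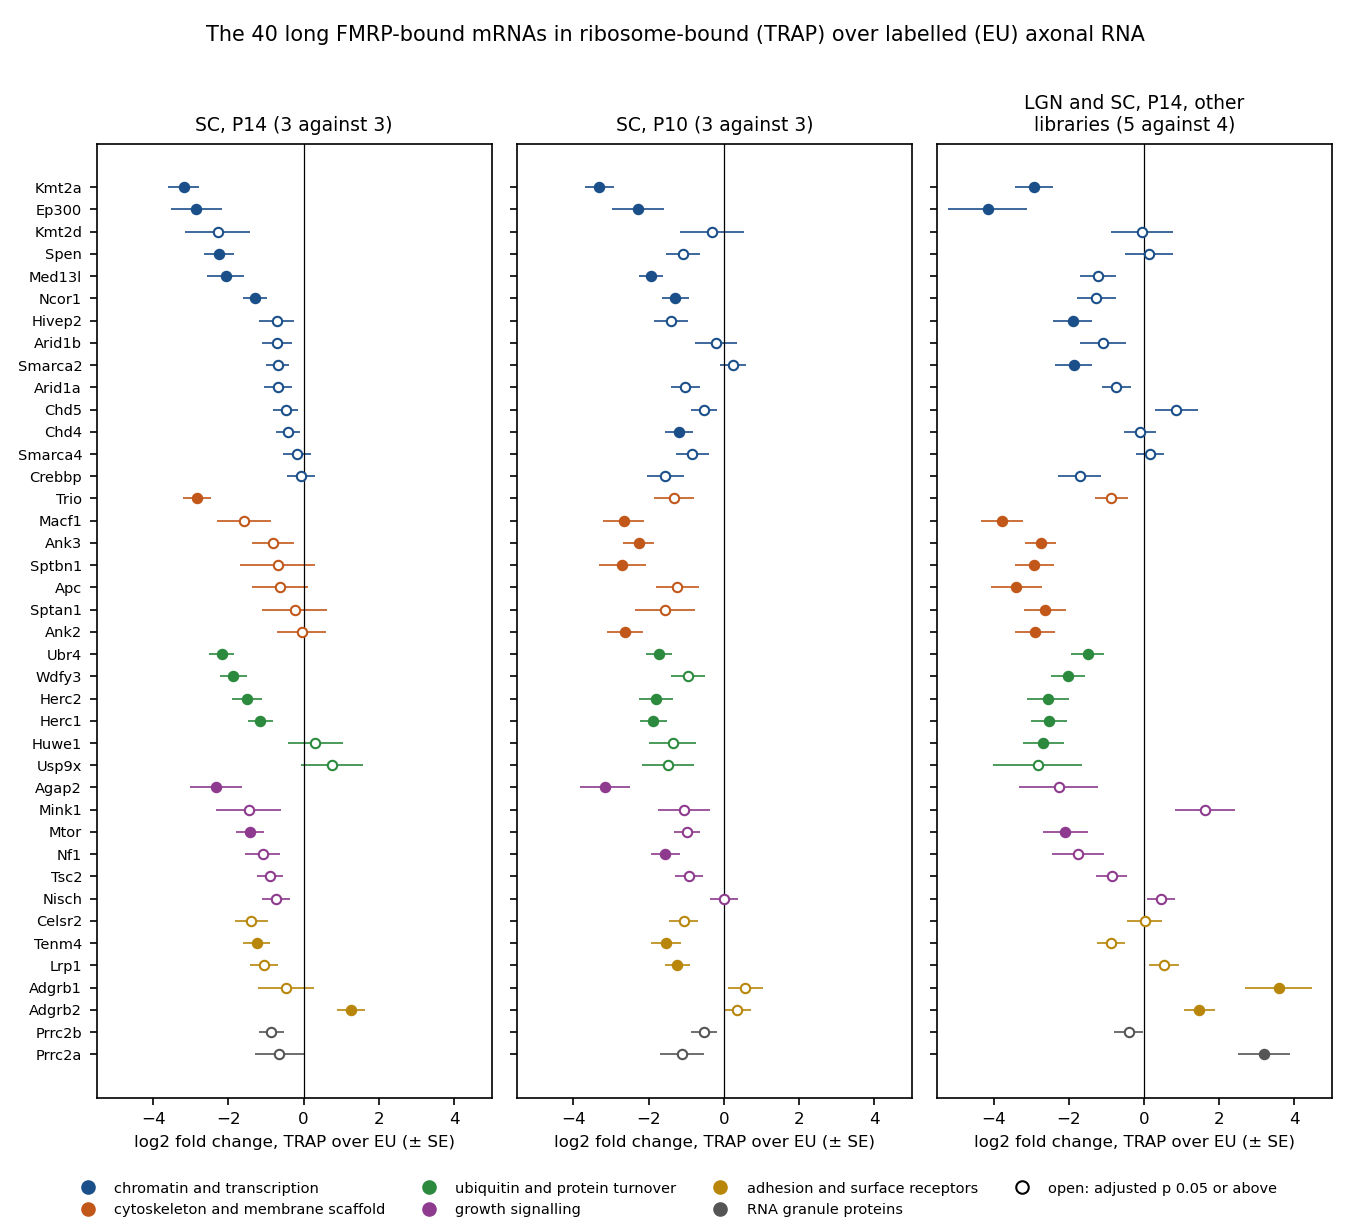
Log2 fold change of TRAP over EU (horizontal, with SE) for each of the 40 mRNAs (vertical, by role) in the 3 sets of libraries. Filled points have an adjusted p under 0.05, and open points do not. Kmt2a is far left in all 3 panels, and Adgrb2 lies right of 0 in each.

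Among the 14 chromatin and transcription genes, 5 fell at P14, 5 at P10 and 4 in the LGN and SC libraries. Kmt2a (chr9:44803355-44881296, minus strand), a histone methyltransferase, had the smallest adjusted p of the set at both ages. Its normalised CPM at P14 were 199, 274 and 200 in EU and 16.9, 36.1 and 20.8 in TRAP. Every TRAP library lay far below every EU library, with a log2 fold change of -3.19 ± 0.40 (SE, 3 against 3, adjusted p = 0.0025). At P10 Kmt2a was at 284, 162 and 159 in EU and 20.8, 22.2 and 17.9 in TRAP, again with no overlap (-3.31 ± 0.39, adjusted p = 0.00108). In the LGN and SC libraries it was 119 to 227 in EU and 9.64 to 30.4 in TRAP (-2.92 ± 0.50, adjusted p = 0.00294). Ep300, which acetylates histones, also fell in all 3 sets, by 2.86, 2.27 and 4.15 on the log2 scale, but at low levels of 0.325 to 4.31 CPM in TRAP. Spen, a transcriptional repressor, Med13l, a subunit of the Mediator complex, and the corepressor Ncor1 fell at P14 (-2.25 ± 0.41, -2.07 ± 0.49 and -1.29 ± 0.33). At P10 Med13l (-1.94 ± 0.33), Ncor1 (-1.28 ± 0.36) and the remodeller Chd4 (-1.20 ± 0.37) fell, and in the LGN and SC libraries Smarca2 (-1.87 ± 0.49) and the zinc finger factor Hivep2 (-1.89 ± 0.52). Smarca4, the other BAF ATPase, passed in none, at -0.17 ± 0.37, -0.84 ± 0.44 and 0.16 ± 0.38.

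Of the 7 cytoskeleton and scaffold genes, 1 fell at P14, 4 at P10 and 6 in the LGN and SC libraries. The one at P14 was Trio, an activator of small GTPases in axon growth. It was at 222, 267 and 207 CPM in EU and 21.6, 42.1 and 34.6 in TRAP. The groups were far apart (-2.82 ± 0.37, adjusted p = 0.00297). Trio did not pass at P10 (-1.32 ± 0.53, adjusted p = 0.109) or in the LGN and SC libraries (-0.86 ± 0.44, adjusted p = 0.193). For the ankyrins and spectrins, which build the membrane skeleton of the axon, SC TRAP replicate 3 at P14 was high. Sptan1 was at 912, 81.7 and 41.5 CPM in TRAP at P14 against 435, 340 and 446 in EU, and the beta spectrin Sptbn1 at 689, 34.5 and 29.1 against 341, 411 and 463. Both genes were thus above EU in 1 TRAP library and far below it in the other pair. Ank3, the ankyrin of the axon initial segment and nodes, was at 144, 130 and 147 CPM in EU at P10 and 31.5, 40.2 and 15.9 in TRAP, without overlap (-2.26 ± 0.41, adjusted p = 0.00538). At P10 Ank2, Macf1, which links actin to microtubules, and Sptbn1 also fell, by 2.62, 2.65 and 2.69 on the log2 scale. All 7 but Trio fell in the LGN and SC libraries, from -2.64 ± 0.56 (Sptan1) to -3.78 ± 0.55 (Macf1, adjusted p = 0.0015).

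Of the 6 genes of ubiquitin and protein turnover, 4 fell at P14, 3 at P10 and 5 in the LGN and SC libraries. Ubr4, a ubiquitin ligase, was at 213, 286 and 229 CPM in EU and 54.7, 63.5 and 43.2 in TRAP at P14. No TRAP library came near an EU library (-2.17 ± 0.33, adjusted p = 0.00466). Herc1, a large ubiquitin ligase, was at 94.7, 159 and 130 CPM in EU and 38.7, 28.0 and 37.4 in TRAP at P10, and the groups did not overlap (-1.88 ± 0.36, adjusted p = 0.00679). Ubr4, Herc1 and the related ligase Herc2 fell in all 3 sets, Ubr4 by 1.73 at P10 and 1.49 in the LGN and SC libraries. Wdfy3, a scaffold of selective autophagy, fell at P14 (-1.87 ± 0.36) and in the LGN and SC libraries (-2.02 ± 0.45), and the ligase Huwe1 in the latter alone (-2.68 ± 0.55). Huwe1 and Usp9x lay above 0 at P14 (0.31 ± 0.73 and 0.75 ± 0.83) with overlapping libraries.

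In growth signalling, Mtor, the kinase that drives translation and growth, was at 118, 117 and 64.3 CPM in EU and 45.2, 32.2 and 33.6 in TRAP at P14. The lowest EU library was still above the highest TRAP library (-1.43 ± 0.37, adjusted p = 0.0296). Agap2, a GTPase-activating protein for Arf proteins, was at 67.0, 63.0 and 11.9 CPM in EU and 4.15, 8.30 and 3.52 in TRAP at P10, with 1 EU library close to TRAP (-3.15 ± 0.67, adjusted p = 0.0103). Agap2 fell at P14 (-2.32 ± 0.69, adjusted p = 0.0477), the Ras inhibitor Nf1 fell at P10 (-1.55 ± 0.39), and Mtor fell in the LGN and SC libraries (-2.09 ± 0.60). Tsc2, which restrains Mtor, passed in none, at -0.88 ± 0.35, -0.92 ± 0.37 and -0.86 ± 0.41, nor did Nisch.

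The adhesion and surface receptors and the RNA granule proteins moved both ways. Tenm4, a teneurin of synaptic partner choice, was at 299, 305 and 186 CPM in EU and 81.0, 148 and 103 in TRAP at P14, with no overlap (-1.25 ± 0.36, adjusted p = 0.043). At P10 it was at 298, 169 and 172 in EU and 72.1, 49.0 and 98.1 in TRAP (-1.54 ± 0.40, adjusted p = 0.0224). Lrp1, an endocytic receptor, fell at P10 (-1.24 ± 0.33). Adgrb2, an adhesion receptor of the brain angiogenesis inhibitor family, was the gene that rose at P14. It was at 132, 98.3 and 80.7 CPM in EU and 171, 348 and 221 in TRAP, so every TRAP library was above every EU library (1.25 ± 0.37, adjusted p = 0.0471). In the LGN and SC libraries Adgrb2 was at 63.0, 100, 151 and 191 CPM in EU and 312, 218, 219, 323 and 520 in TRAP, also without overlap (1.47 ± 0.41, adjusted p = 0.0246). Its relative Adgrb1 was at 17.0, 91.1, 18.1 and 90.2 CPM in those EU libraries and 826, 170, 2180, 131 and 607 in TRAP. All TRAP values were higher (3.58 ± 0.89, adjusted p = 0.0148). Prrc2a, an RNA-binding protein that reads methylated adenosine, was at 3.13, 19.0, 5.80 and 28.3 CPM in EU and 125, 92.9, 180, 89.0 and 145 in TRAP there, far apart (3.20 ± 0.69, adjusted p = 0.0077). At P14 in the SC set neither passed, with Adgrb1 at -0.47 ± 0.75 and Prrc2a at -0.64 ± 0.65, and at P10 Prrc2a was at 78.8, 38.8 and 30.7 in EU and 19.7, 40.7 and 8.2 in TRAP (-1.11 ± 0.58, adjusted p = 0.216). Prrc2b, its paralogue, was at 361, 481 and 289 CPM in EU and 190, 241 and 194 in TRAP at P14, which did not overlap but did not pass (-0.86 ± 0.33, adjusted p = 0.104). No difference of the TRAP to EU ratio between P14 and P10 was called for any of the 40 mRNAs in the interaction test of edgeR, nor for any gene (0% of 18660). At an unadjusted p under 0.05, 2 were higher and 2 lower, against 11% of all genes in either direction, and DESeq2 called 0 of the 40.

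The count of falls changed when single libraries were left out. Counts in the leave-out and single-region fits that follow come without the share of all genes called. They describe only how calls depend on the fit. The count of falls was 5 at P14 without SC TRAP replicate 4, 6 without SC TRAP replicate 5 or SC EU replicate 3, and 9 without SC EU replicate 4 or SC TRAP replicate 3. At P10 it was 8 without SC EU replicate 1 or 2 and 10 without SC TRAP replicate 3. In the LGN and SC libraries the rises numbered 1 without SC TRAP replicate 2, and within a region 3 fell in LGN alone (median -1.45) and 0 were called in SC alone (median -1.38). When 1 library was left out the medians ran from -1.01 to -0.94 at P14 (-0.87 with all) and from -1.32 to -1.02 at P10 (-1.26 with all). Nuclear long noncoding RNAs moved with the contrast: 7 of 8 tested were lower in TRAP at P14 and at P10, and 9 of 9 in the LGN and SC libraries, with sums of 11726 to 34590 CPM in EU and 11.8 to 181 in wild type TRAP. The part of nuclear RNA in the falls was not tested. Markers of cells also moved with it. Summed microglia genes were higher in every TRAP library, at 782 to 1229 CPM against 274 to 439 in EU at P14, 618 to 892 against 297 to 434 at P10 and 639 to 977 against 141 to 513 in the LGN and SC libraries, with 3 of 10 called higher in each set. Endothelial sums were apart in SC, at 345 to 717 CPM in TRAP against 160 to 299 in EU at P14 and 348 to 492.9 against 132 to 268 at P10, with 0 of 6 and 1 of 6 called higher and 0 and 1 lower. Retinal ganglion cell sums were lower in TRAP, without overlap, at P10 (1341 to 1933 CPM against 2917 to 3691, 1 of 13 tested genes called higher and 0 lower) and in the LGN and SC libraries (1126 to 2785 against 3115 to 3709, 3 of 13 lower), and overlapped at P14. Oligodendrocyte sums overlapped in the 3 sets, but in LGN alone were 27665 to 38687 CPM in TRAP against 13850 and 21086 in EU, and in the LGN and SC libraries 7 of 14 were called higher. The part of these cells in the falls was not tested.

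Transcript length moved with the ratio. Across all genes tested, Spearman's rank correlation of log2 fold change on length was -0.05 at P14 (16263 genes with a length), -0.22 at P10 (15726) and -0.31 in the LGN and SC libraries (15343). Among the 40 mRNAs it was -0.32, -0.42 and -0.44 (n = 40 genes that share the same libraries, a description only). Other genes at least as long as Mink1 were lower in TRAP in 11.1% of 3493 cases at P14, 18% of 3405 at P10 and 17.1% of 3419 in the LGN and SC libraries, with medians of -0.25, -0.66 and -1.11. Among all tested genes with transcripts of 12000 nt or more, 13 of the 40 among them, 26.1% of 203, 47.2% of 195 and 50.5% of 202 were lower, with medians of -1.30, -1.80 and -2.60. When the trend of each library on length was removed, 0 higher and 4 lower of the 40 were left at P14, 0 and 3 at P10, and 10 higher and 0 lower in the LGN and SC libraries. In those fits 6.08% of all genes were higher and 9.04% lower at P14, 7.04% and 8.43% at P10, and 8.16% and 9.08% in the LGN and SC libraries. The medians of the 40 became -0.37, -0.0051 and 0.79. Kmt2a (-2.03, adjusted p = 0.0227), Trio (-2.15, adjusted p = 0.0129), Ep300 (-2.43, adjusted p = 0.0317) and Agap2 (-2.21, adjusted p = 0.0426) were the falls that passed at P14 with the trend removed. At P10 they were Kmt2a (-1.39), Agap2 (-2.75) and Sptbn1 (-1.69).

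**Figure D4:**
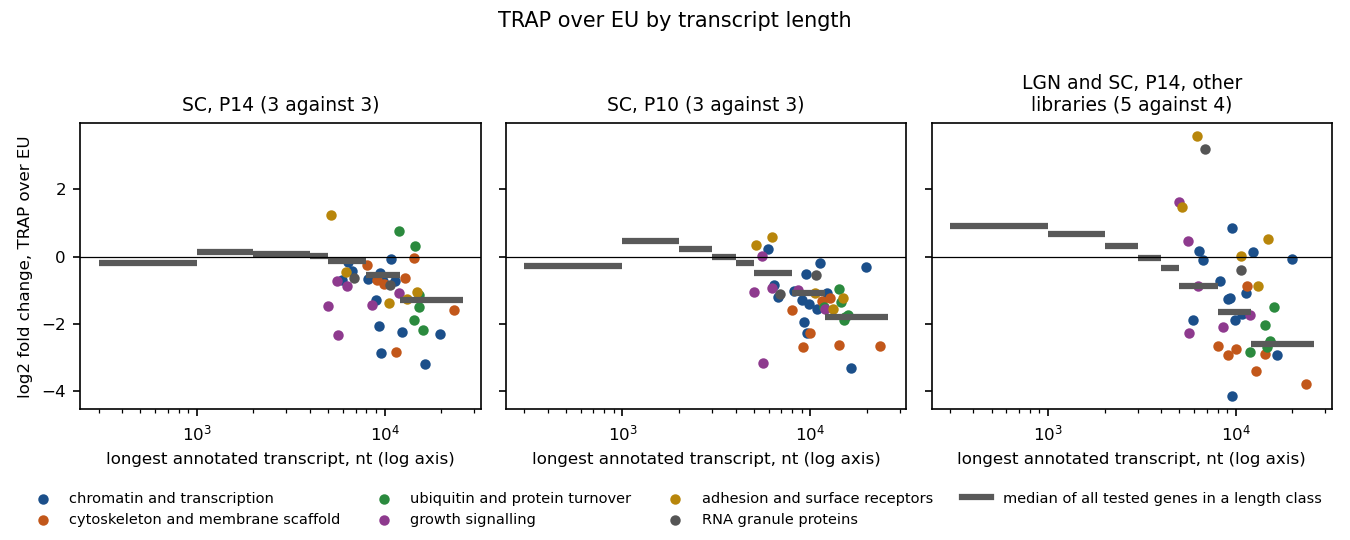
Log2 fold change of TRAP over EU (vertical) against the length of the longest annotated transcript (horizontal, log axis) for the 40 mRNAs (points, coloured by role) and the median of all tested genes in each length class (grey bars). The bars step down towards the longest transcripts in each set, reaching -1.30, -1.80 and -2.60 at 12000 nt or more.

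GC content moved with the ratio as well, and not in the same way in each set. The rank correlation of log2 fold change on GC content was -0.15 for all tested genes at P14, 0.17 at P10 and 0.57 in the LGN and SC libraries, and -0.08, 0.57 and 0.82 among the 40. The 3 mRNAs that rose in the last set, Adgrb1, Adgrb2 and Prrc2a, have 3 of the 4 transcripts of the set with the highest GC content (63.6%, 63.1% and 60.6%). The other is Agap2 (63%), which was at -2.27 ± 1.06 there. In that set 17.5% of 3494 other genes of 55% GC or more were higher. With the GC trend removed (a fit added after seeing the data), Prrc2a stayed higher in that set (1.60, adjusted p = 0.0478) and Adgrb2 turned (-1.05). With the trends on length and GC both removed, Kmt2a (-1.94, adjusted p = 0.0206), Trio (-1.86, adjusted p = 0.0096) and Ep300 (-2.28, adjusted p = 0.029) remained lower and Adgrb2 (1.53, adjusted p = 0.0187) higher in SC at P14.

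Other genes of the same pathways were read from lists. Of 30 further reported FMRP targets, most of them long neuronal mRNAs, 8 were lower and 1 higher at P14 (median -0.97), 15 and 0 at P10 (-1.29), and 9 and 3 in the LGN and SC libraries (-0.98). Those with the smallest adjusted p were the calcium channel gene Cacna1a (-4.88 ± 0.44) and the microtubule-associated Map1a (-2.54 ± 0.35) at P14, the dynein heavy chain Dync1h1 (-2.79 ± 0.36) and the synaptic kinase Camk2a (-2.54 ± 0.38) at P10, and the postsynaptic scaffold Dlg4 (-2.73 ± 0.50) and Map2 (-3.19 ± 0.59) in the LGN and SC libraries. Of 23 shorter partners of the chromatin genes, 3 were higher and 0 lower at P14 (median 0.01), 3 and 2 at P10 (-0.30), and 1 and 0 in the LGN and SC libraries (-0.26). The histone-binding proteins Rbbp7 (3.84 ± 0.50) and Rbbp4 (2.91 ± 0.49) rose at P14, the deacetylase Hdac2 (2.61 ± 0.60) and Rbbp7 (2.17 ± 0.61) at P10, and Mta1 (3.12 ± 0.70), of the NuRD complex, in the LGN and SC libraries. Of 15 partners of Mtor and Tsc2, 2 were higher and 2 lower at P14, 1 and 4 at P10, and 1 and 2 in the LGN and SC libraries. Rheb, the small GTPase that activates Mtor, rose at P14 (1.77 ± 0.37) and P10 (2.36 ± 0.44), and Tsc1, the partner of Tsc2, fell at P14 (-1.58 ± 0.44) and in the LGN and SC libraries (-2.45 ± 0.58). Rictor, a subunit of the second Mtor complex, fell at P10 (-2.89 ± 0.60), and Akt1s1, an inhibitor of the first, rose in the LGN and SC libraries (2.51 ± 0.67). Of 15 partners of the spectrins and ankyrins, 3 were lower and 1 higher at each age in SC, and 1 and 0 in the LGN and SC libraries. Nfasc, which anchors at nodes, fell at P14 (-2.02 ± 0.49) and P10 (-1.59 ± 0.32), the adducin Add2 fell at P14 (-1.98 ± 0.47), the catenin Ctnnb1 rose at P10 (1.70 ± 0.36), and the tropomodulin Tmod2 fell in the LGN and SC libraries (-2.71 ± 0.64). None of 6 genes of the FMRP family and its partners was called in any of the 3 sets.

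EU RNA of SC was compared with EU RNA of immunopanned eye cells, labelled as retinal ganglion cells, at P14. Markers of other cells were present on both sides, as given below. Of the 40 mRNAs, 17 were higher in SC and 1 lower, against 10.7% higher and 11.3% lower of 15540 genes, with a median log2 fold change of 1.45 against 0.11. The SC libraries are those used at P14 above and in several comparisons below, which are therefore not independent of each other. Among the roles, 4 of 5 adhesion receptors, both RNA granule genes, 3 of 6 growth genes, 6 of 14 chromatin genes, 1 of 7 cytoskeleton genes and 1 of 6 turnover genes were higher. Trio was at 2.34, 7.24 and 8.22 CPM in immunopanned EU and 153, 181 and 148 in SC EU. The groups were far apart (4.76 ± 0.67, adjusted p = 0.0036). Lrp1 was at 5.38, 22.9 and 20.7 in immunopanned EU and 287, 272 and 217 in SC EU, with no overlap (3.99 ± 0.67, adjusted p = 0.00624). Chd5, a neuronal chromatin remodeller, was at 2.19, 5.45 and 8.29 in immunopanned EU and 103, 116 and 71.3 in SC EU, again far apart (4.19 ± 0.72, adjusted p = 0.00646). Prrc2a was at 1, 0.864 and 0.205 against 28.5, 32.1 and 15.4 (5.18 ± 1.12, adjusted p = 0.0145). Agap2 was at 0.297, 0 and 0 against 10.2, 16.2 and 39.3, and its fitted value (7.56 ± 1.75, adjusted p = 0.019) depends on the prior count. In each of these genes every SC library was above every immunopanned library. Usp9x was the gene that was lower in SC, at 69.4, 94.2 and 80.6 CPM in immunopanned EU and 1.84, 5.62 and 9.37 in SC EU. All SC values were below all immunopanned values (-3.86 ± 0.76, adjusted p = 0.011).

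Rod genes were at 9093 to 142289 CPM in the immunopanned EU libraries and at 31.5 CPM or less in the SC EU libraries compared, retinal ganglion cell genes at 207 to 634 against 2070 to 3142 CPM, and oligodendrocyte genes, 7 of 14 of them at 0 in all immunopanned EU libraries, at 24.6 to 86.8 against 10690 to 16841 CPM. Astrocyte sums were 912 to 2138 against 3296 to 4685 CPM, endothelial sums 26.9 to 101 against 160 to 299, and nuclear long noncoding RNAs 555 to 688 against 11726 to 14682. So the summed retinal ganglion cell list, led by Gap43 and Nefl, was lower in the immunopanned libraries than in SC, although their label names that cell type. The part of all these markers in the difference was not tested. Counts in the alternative fits that follow come without the share of all genes called and describe only how calls depend on the fit. Leaving out immunopanned replicate 1, the library rich in rod RNA, left 17 higher and 1 lower. The count was 5 higher and 0 lower without SC EU replicate 4, 7 and 1 without SC EU replicate 3, 9 and 1 without SC EU replicate 5, and 11 and 1 without immunopanned replicate 2. With FACS-sorted eye cells in place of the immunopanned EU libraries, 16 were higher and 2 lower (median 0.73), where Med13l (-1.19) and Prrc2a (-0.071) had the other sign. Here too GC content moved with the difference, with a rank correlation of 0.44 for all genes and 0.65 among the 40, and with the GC trend removed 4 were higher and 1 lower (median 0.17): Trio (3.22), Hivep2 (2.82), Kmt2a (2.28) and Nf1 (4.26) higher and Usp9x (-2.28) lower.

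In the pathway lists the other FMRP targets were higher in SC for 15 of 30 and lower for 1 (median 2.64), led by Cacna1a (8.80 ± 0.80) and Camk2a (9.44 ± 1.34), both near 0 in the immunopanned libraries. The spectrin and ankyrin partners were higher for 8 of 15 and lower for 0 (median 2.94), led by Add2 (5.95 ± 0.77) and Nfasc (4.92 ± 0.69). Chromatin partners were higher for 6 of 23 and lower for 2 (median 0.18), with Rbbp7 (-5.26 ± 0.74) and the BAF subunit Smarcd3 (4.84 ± 0.85) having the smallest adjusted p. Partners of Mtor and Tsc2 were higher for 2 of 15 and lower for 1 (median 0.09), with Hras (3.07 ± 0.63) higher and Rheb (-2.38 ± 0.51) lower. Of the 6 genes of the FMRP family and its partners Fmr1 was lower in SC (-5.11 ± 1.34, adjusted p = 0.0279).

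A chase leaves RNA marked earlier to decay. The values are shares of the marked RNA captured at each time, not amounts, and age changed with the chase. After the 4-day chase from P10, edgeR called 0 of the 40 mRNAs and DESeq2 0, against 0.00597% of 16746 genes (1 gene) in edgeR. At an unadjusted p under 0.05, 5 were higher and 7 lower, against 18.2% of all genes in either direction. The median was -0.21 against 0.05 for all genes. Agap2 had the lowest value, at 74.6, 72.2 and 13.3 CPM before the chase and 2.17, 25.1 and 11.4 after it, with overlap (-2.05 ± 0.80, adjusted p = 0.23). Usp9x had the highest, at 7.88, 12 and 40 before and 79.0, 41.2 and 30.2 after it, also with overlap (1.32 ± 0.57, adjusted p = 0.255). Oligodendrocyte genes summed to 1872 to 3718 CPM before the chase and 7000 to 12011 after it, and astrocyte genes to 1640 to 3713 and 4072 to 4438. None of the 14 and 10 was called, and their part was not tested.

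In the sarm1ko group genotype, axotomy, the chase and age changed together and cannot be told apart. Sarm1 promotes the degeneration of cut axons. Its level was 3.32, 3.22 and 2.62 CPM in these libraries against 19.4, 42.1 and 19.9 in the P14 SC EU libraries compared (-3.15 ± 0.48, adjusted p = 0.0021). By CPM scaled to library totals, the sarm1ko libraries were at 1.25 to 4.37. Wild type SC EU replicate 1 at P14 (2.74) and replicate 2 at 8 weeks (3.58) lay within that range. All other wild type SC EU libraries were at 13.1 CPM or above. Of the 40 mRNAs, 11 were higher and 10 lower than in SC EU at P14, against 16.7% higher and 20.8% lower of 17171 genes, with a median of -0.19 against 0.16. Of 3611 other genes at least as long as Mink1, 28.5% were higher and 12.3% lower (median 0.83). By role, of the adhesion receptors 4 of 5 fell and 0 rose, and of the cytoskeleton genes 4 of 7 and of the turnover genes 4 of 6 rose and 0 fell. Lrp1 was at 294, 283 and 209 CPM at P14 and 60.7, 67.9 and 62.9 in the sarm1ko libraries. The latter were close together and far lower (-2.04 ± 0.27, adjusted p = 0.00154). Celsr2, a cadherin of planar polarity, was at 267, 332 and 164 against 57.9, 72.2 and 47.3 (-2.10 ± 0.34, adjusted p = 0.00238). Adgrb2 was at 92.8, 69.7 and 55.6 against 19.4, 18.5 and 16.8 (-1.99 ± 0.32, adjusted p = 0.00241). Both pairs of groups were apart. Adgrb1 was at 111, 79.7 and 33.4 against 5.77, 9.96 and 13.2 (-2.96 ± 0.50, adjusted p = 0.00291). Smarca4 was at 342, 430 and 223 against 99.0, 90.7 and 101 (-1.78 ± 0.31, adjusted p = 0.00308). Tsc2 was at 133, 133 and 72.8 against 31.5, 40.9 and 33.8 (-1.67 ± 0.33, adjusted p = 0.00468). In each of these 3 genes every sarm1ko library was below every P14 library. The largest rises among the called genes were those of Huwe1 (3.09 ± 0.78), Usp9x (2.52 ± 0.57), Macf1 (2.28 ± 0.47) and Nf1 (1.83 ± 0.40). Markers moved with this comparison too. Retinal ganglion cell genes summed to 374 to 1296 CPM in the sarm1ko libraries against 2070 to 3142 at P14 (4 of 12 tested called lower, 0 higher), midbrain transcription factors to 68.3 to 252 against 309 to 482 (4 of 10 lower, 0 higher) and endothelial genes to 53.5 to 156 against 160 to 299 (2 of 6 lower, 1 higher). Their part was not tested.

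GC content moved with this comparison, with a rank correlation of -0.71 over 17158 genes and -0.88 among the 40. Among other genes of 55% GC or more, 56.4% of 3458 were lower, and among those under 45%, 38.7% of 4978 were higher. Counts in the alternative fits of this paragraph come without the share of all genes called and describe only how calls depend on the fit. With the GC trend removed, 8 of the 40 were higher and 0 lower (median 0.49). With the trends on length and GC both removed, 1 was higher and 9 lower, among them Lrp1 (-1.81), Celsr2 (-1.52), Adgrb1 (-1.50), Tsc2 (-1.11) and Smarca4 (-1.06), while Huwe1 (1.65) was higher. The ribosomal RNA gene CT010467.1 was at 274040 to 485023 CPM in the sarm1ko libraries against 45385 to 337251 in the P14 libraries compared, and without ribosomal and mitochondrially encoded genes 10 were higher and 11 lower. With all 5 P14 libraries as the control, 1 was higher and 4 lower. Without a single library the counts were 4 and 8 (SC EU replicate 3), 4 and 7 (sarm1ko replicate 1) and 3 and 7 (sarm1ko replicate 3).

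**Figure D5:**
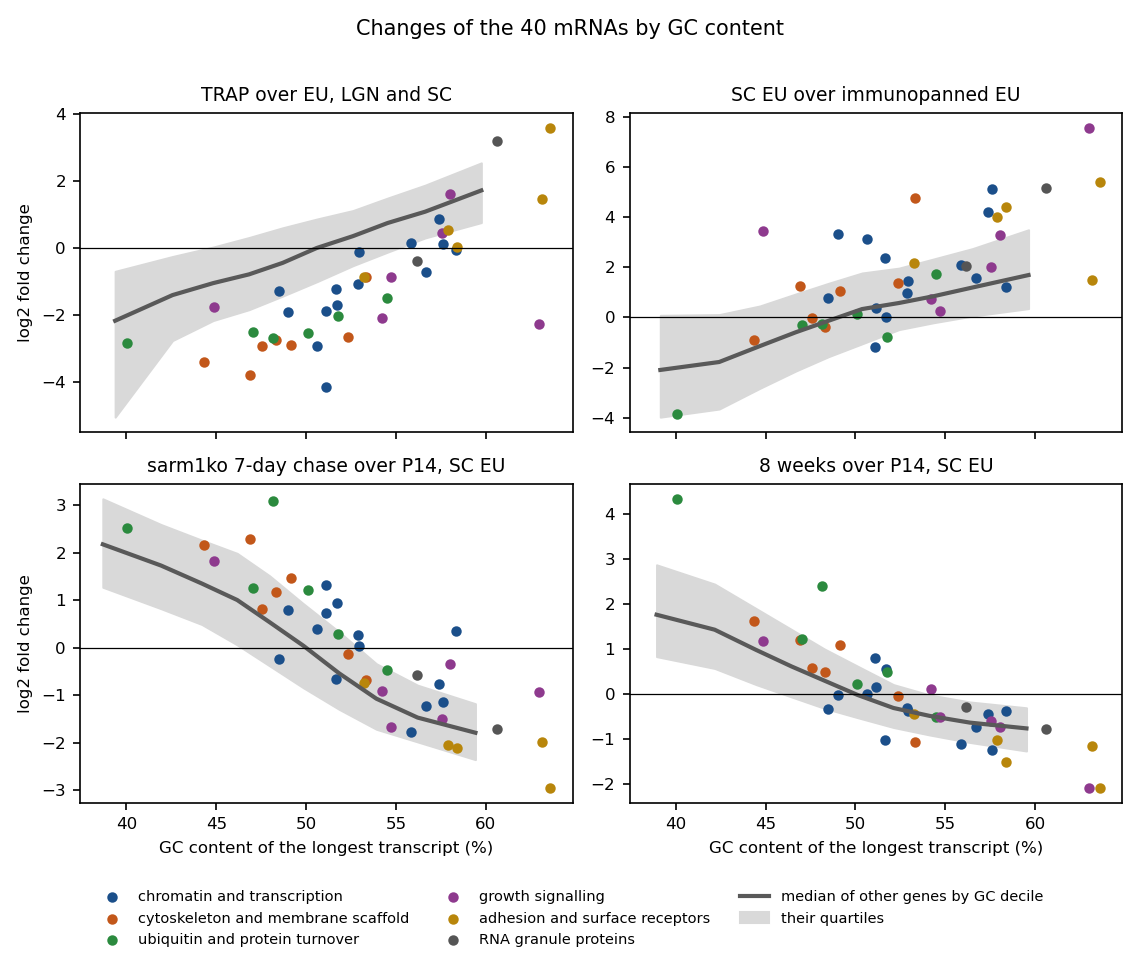
Log2 fold change (vertical) against GC content of the longest transcript in percent (horizontal) for the 40 mRNAs (points, by role), with the median and quartiles of other genes by decile of GC content (grey line and band), in 4 comparisons. The 40 mRNAs slope upward in the upper panels (rank correlations 0.82 and 0.65), most of them below the line of other genes in TRAP over EU, and downward in the lower panels (both -0.88).

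Few genes were called in the age comparisons, of the 40 mRNAs as of all genes tested. In SC EU 1 of the 40 rose from P10 to P14 and 0 fell, against 1.18% and 1.32% of 16262 genes, with a median of 0.16 against 0.03. This was Smarca2, at 66.5, 93.0 and 83.5 CPM at P10 and 168, 214 and 237 at P14. Every P14 library was above every P10 library (1.35 ± 0.29, adjusted p = 0.0353), but the call was lost whenever any library other than SC EU replicate 5 at P14 was left out, and with all 5 P14 libraries. In SC TRAP edgeR called 0 of the 40 and 0% of 15752 genes, with 3 higher and 3 lower at an unadjusted p under 0.05, against 14.5% of all genes in either direction, and 1 called higher by DESeq2, against 1.20% of all genes. At 8 weeks against P14 in SC EU edgeR called 0 of the 40 and 0% of 16942 genes, with 1 higher and 0 lower at an unadjusted p under 0.05, against 8.83% of all genes in either direction, and 1 called higher by DESeq2, against 4.36% of all genes. Without replicate 3 of the 8 week group, 1 was higher and 9 lower. The share of all genes called in that fit is not given, so this count shows only the dependence on that library. The gene at an unadjusted p under 0.05 was Usp9x, at 84.3, 349 and 4.01 CPM at 8 weeks against 2.32, 7.33 and 11.9 at P14, with overlap (4.35 ± 1.32, adjusted p = 0.487). The rank correlation on GC content was -0.64 for all genes and -0.88 among the 40 in this comparison. Cell markers moved with age. Oligodendrocyte genes summed to 1872 to 3718 CPM at P10 and 10690 to 16841 at P14 in EU (6 of 14 called higher), and to 2564 to 5912 and 7938 to 25048 in TRAP (0 of 14). Midbrain transcription factors went from 501 to 849 CPM at P10 to 309 to 482 at P14 in EU (1 of 10 called lower), and astrocyte genes from 2121 to 4045 to 4572 to 7096 in TRAP (0 of 10 called). Retinal ganglion cell genes were at 1204 to 1943 CPM at 8 weeks against 2070 to 3142 at P14 (0 of 13 called). The part of these cells was not tested.

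The fmr1ko label bears directly on mRNAs named for FMRP binding, with the limit that Fmr1 was called lower in none of the 3 kinds of library. In SC EU the Fmr1 values given above amount to 3.07 ± 0.74 (adjusted p = 0.0692). In SC TRAP Fmr1 was at 0.138, 13.4 and 2.49 CPM under the label against 2.79, 4.44 and 11.7 in wild type (-0.24 ± 1.54, adjusted p = 0.968), and in FACS libraries at 26.9, 4.13 and 5.36 against 30.4, 17.7 and 7.77 (-0.62 ± 0.90, adjusted p = 0.891). The ranges overlap in the last 2 pairs and are apart, in the other direction, in the first. Where the deleted part of the gene lies is not given, so reads outside it could remain.

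In SC EU 0 of the 40 mRNAs rose and 1 fell in libraries labelled fmr1ko, against 0.84% and 0.32% of 16546 genes. Their median was -0.56 against -0.01 for all genes, and 33 of 40 were below 0, against 50.6% of all genes. The gene that fell was Celsr2, at 324, 410 and 209 CPM in wild type and 106, 80.9 and 118 under the label. All labelled libraries were lower (-1.63 ± 0.32, adjusted p = 0.0493). Kmt2a just missed the threshold, at 170, 240 and 176 against 69.1, 53.4 and 85.4 (-1.49 ± 0.30, adjusted p = 0.0502), and Trio next, at 190, 233 and 182 against 78.6, 34.0 and 71.6 (-1.72 ± 0.35, adjusted p = 0.0527). Neither overlapped between groups. At an unadjusted p under 0.05, 14 were lower and 0 higher, against 23.6% of all genes in either direction. The count of falls was 14, with 1 rise, without SC EU replicate 5 of the wild type and 0 without any other single library. Shares of all genes called are not given for these fits or for the GC fit below. Their counts show only the dependence on the fit. DESeq2 called 13 lower, against 5.20% of all genes, and the fit with all 5 wild type libraries called 0. The rank correlation on GC content was -0.48 for all genes and -0.63 among the 40, and with that trend removed 2 were lower and the median was -0.46. Of the other FMRP targets 1 of 30 was higher and 1 lower (median -0.57). Nuclear long noncoding RNAs summed to 3947 to 8459 CPM under the label against 11726 to 14682 in wild type (0 of 9 called), oligodendrocyte genes to 8429 to 9273 against 10690 to 16841 (1 of 14 called lower), endothelial genes to 61.9 to 150 against 160 to 299 (0 of 6) and astrocyte genes to 4793 to 5757 against 3296 to 4685 (0 of 10). Their part was not tested.

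In SC TRAP the median of the 40 lay above 0, in libraries that go against their label. EdgeR called 0 of the 40 and 0% of 16115 genes, with 8 higher and 0 lower at an unadjusted p under 0.05, against 17.6% of all genes in either direction, and 9 called higher by DESeq2, against 8.66% of all genes. The median was 0.70 against 0.05. It was 0.59 for 3515 other genes at least as long as Mink1, and 1.57 for 203 genes of 12000 nt or more, members included. Kmt2a was at 18.9, 40.6 and 23.0 CPM in wild type and 121, 158 and 106 under the label (2.23 ± 0.50, adjusted p = 0.0785), and Ncor1 at 82.3, 137 and 103 against 661, 173 and 715 (2.26 ± 0.66, adjusted p = 0.128). The groups did not overlap in either gene. Without replicate 2, the library with rod RNA, 2 were higher and 0 lower, with a median of 0.90. The share of all genes called in that fit is not given. The interaction of label and method, which asks whether the label changes the TRAP to EU ratio, was called for 5 of the 40, all higher in TRAP relative to EU, against 2.49% higher and 3.1% lower of 18561 genes. They were Kmt2a (3.70 ± 0.57, adjusted p = 0.0162), Med13l (3.81 ± 0.81, adjusted p = 0.0266), Spen (3.83 ± 0.82, adjusted p = 0.0276), Ubr4 (2.38 ± 0.54, adjusted p = 0.0317) and Ncor1 (2.72 ± 0.68, adjusted p = 0.0412). All 5 were among the genes called lower in TRAP at P14 above. The wild type libraries of this fit are the same ones, so these results are not independent. Of 3692 other genes at least as long as Mink1, 3.11% were called higher in the interaction (median 0.38). Of 214 genes of 12000 nt or more, members included, 11.2% were (median 1.57). The median of the 40 was 1.13. Counts in the leave-out fits that follow come without the share of all genes called. Without SC TRAP replicate 2 labelled fmr1ko 12 were called, and 0 were called without any single SC EU library labelled fmr1ko, without SC EU replicate 3 or 4, or without SC TRAP replicate 3 or 5 of the wild type, and 1 without SC TRAP replicate 4. Nuclear long noncoding RNAs stood at 753 to 11490 CPM in the labelled TRAP libraries against 24.3 to 181 in SC TRAP of the wild type, and 5 of 9 were called higher in the interaction. Microglia genes summed to 19.9 to 379 CPM in the labelled libraries against 782 to 1229 in wild type, endothelial genes to 245 to 290 against 345 to 717, and astrocyte genes to 1016 to 4090 against 4572 to 7096. The part of all these in the values was not tested.

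In FACS-sorted eye cells edgeR called 0 of the 39 mRNAs tested (Agap2 did not pass the filter on low counts), against 0.0396% of 15165 genes. At an unadjusted p under 0.05, 3 were higher and 4 lower, against 12.6% of all genes in either direction. DESeq2 called 1 higher and 2 lower, against 3.85% and 3.35% of all genes. The list of 11 midbrain transcription factors summed to 395 to 496 CPM under the label and 564 to 635 in wild type. Nearly all of this was Otx2, at 385 to 492 and 561 to 627 CPM, so the sum stands for that gene and not for midbrain cells. Of the list, 7 genes under the label and 4 in wild type were at 0 in all libraries. The part of Otx2 was not tested. The median was -0.14 against 0.02. Kmt2d had the smallest p, at 27.5, 16.3 and 16.9 CPM in wild type and 65.1, 84.2 and 71.4 under the label, without overlap (1.86 ± 0.35, adjusted p = 0.104). Med13l was at 206, 322 and 290 against 93.9, 106 and 137 (-1.28 ± 0.26, adjusted p = 0.121).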

How the data were processed

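RNA of 48 libraries in 15 groups was measured by RNA-seq, for EU samples from amplified cDNA of the captured RNA, per the labels' protocols. The authors deposited estimated counts per gene, made with Salmon on mm10 per the submitters' processing notes. They also deposited TPM values, which are scaled for transcript length and depth. Annotation and versions behind them: not given in the sources used here. Of 54331 gene identifiers, 54097 matched GENCODE mouse release 21, from which lengths, GC content and coding sequences were read. Total counts ran from 2.56e+06 to 4.83e+07 a library.

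Estimated counts were rounded, filtered with filterByExpr, scaled by TMM and tested in edgeR 4.0.16 (R 4.3.3) with the robust quasi-likelihood F test, with Benjamini-Hochberg adjustment over all tested genes at 0.05. Differences between contrasts were interaction terms. Normalised CPM are per library within a comparison. Trends on length and GC content were removed as offsets fitted per library by lowess (span 0.3). Summaries used Python 3.11.15 with pandas 2.3.3 and numpy 2.4.6. Scripts were tested on simulated data. Alternatives were DESeq2 1.42.0, limma 3.58.1 on log2(TPM + 1), RLE size factors, no filter, no ribosomal RNA or mitochondrial genes, other controls, a replicate block and leaving out each library. Immunopanned libraries without EU capture served only as an alternative. The fits with GC content, and those with length and GC content together, were chosen after seeing the data.

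The 40 members and all lists were chosen with earlier results of these data known. Values by library were given for the member of each role with the smallest adjusted p in SC TRAP against EU and in the immunopanned comparison, for members called in a chase, age or fmr1ko comparison (at most 6, by adjusted p) and for members called against the direction of most. Of each partner list the 2 called genes with the smallest adjusted p were named. Sptan1 and Sptbn1 at P14, members given by library without a call in the chase, 8 week and FACS comparisons, and Trio, Kmt2a and Ncor1 in the fmr1ko comparisons were added after their values were seen. Replicate numbers gave no pairing in the comparisons checked: in none of them did all same-numbered libraries deviate together with correlations over 0.1. The LGN and SC set and the immunopanned comparison were not checked. No replicate pair matched within sampling noise. The leading genes of the rod and oligodendrocyte lists are not reported here.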

Additional observations from a re-analysis of the deposited data

Results flagged for a closer look

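Within the groups of 5 libraries, 1 library stood apart from the other 4 in 20 of 82 tests of the TPM of each member and of their sum (Dixon's test, which by chance picks out about 1 group in 20). In SC EU at P14 it was each time replicate 1, the shallowest library. There Chd5 was at 82.4 TPM (others 27.3 to 32.3), Ep300 at 45.6 (2.20 to 7.98), Med13l at 73.4 (19.7 to 32.1), Smarca2 at 962 (132 to 198), Ank2 at 293 (15.7 to 76.8) and Apc at 43.9 (0.904 to 8.89). Huwe1 was at 181 TPM (8.95 to 28.0), Nf1 at 54.2 (2.66 to 13.6), Mtor at 103 (8.82 to 25.1), Mink1 at 63.7 (3.51 to 8.51) and Agap2 at 71.3 (1.54 to 15.5).

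In SC TRAP at P14 replicate 1 was high for Chd4 (55.6 TPM, others 18.1 to 26), Ncor1 (147, 28.3 to 60.1), Herc2 (11.4, 2.12 to 3.75), Ubr4 (62.0, 12.8 to 25.8) and Tsc2 (109.96, 57.6 to 70.7). Replicate 2 was high for Spen (43.9, 2.34 to 7.66) and low for Mtor (0.555, 8.30 to 11.2). Replicate 3 was high for Macf1 (75.6, 5.59 to 22.3) and Sptbn1 (294, 4.58 to 46.1).

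The TRAP to EU ratio was higher under the label fmr1ko, by the interaction test in edgeR, for Kmt2a (3.70, adjusted p = 0.0162), Spen (3.83, adjusted p = 0.0276), Ncor1 (2.72, adjusted p = 0.0412), Med13l (3.81, adjusted p = 0.0266) and Ubr4 (2.38, adjusted p = 0.0317), in TRAP libraries that go against their label. Mink1 lay lower in every TRAP library than in every EU library of SC at P14 (-1.45) and higher in every one in the LGN and SC libraries (1.62), and this difference was not tested.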

How the results depend on the processing

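With the length trend removed, 4 members were called in TRAP against EU at P14 (median -0.37), 3 at P10 (-0.0051) and 10 in the LGN and SC libraries (0.79). At P10 Herc1 (0.016), Ubr4 (0.26), Lrp1 (0.58) and Tenm4 (0.17) changed sign, and in the LGN and SC libraries Hivep2 (0.22), Ank2 (0.25), Herc1 (0.42), Herc2 (0.38), Ubr4 (1.36) and Wdfy3 (0.89). With length and GC removed the counts were 4 (median -0.28), 3 (-3.93e-05) and 5 (0.47). Herc1 (0.14), Ubr4 (0.13), Nf1 (0.095), Lrp1 (0.35) and Tenm4 (0.055) changed sign at P10. In the LGN and SC libraries Hivep2 (0.43), Ank2 (0.46), Macf1 (0.58), Apc (0.35), Huwe1 (0.31), Herc1 (1.03), Herc2 (0.35), Ubr4 (0.51), Wdfy3 (0.52) and Adgrb2 (-0.12) did so, and Adgrb2 was -1.05 with GC alone removed. Without ribosomal and mitochondrial genes the P10 median was -1.13, and with GC removed -1.16. With limma the medians were -1.68 at P10 and -2.05 in the LGN and SC libraries, where LGN alone gave 3 calls and SC alone 0. For SC against immunopanned EU, limma called 31 (median 2.68), removing length gave a median of 1.01, removing GC 5 calls (0.17, Nisch -0.019) and removing both 4 (0.13). FACS cells as soma gave a median of 0.73 (Med13l -1.19, Prrc2a -0.071), immunopanned cells without EU 0 calls (Hivep2 -0.70), and their replicates 2 and 3 a median of 1.21. For the 4-day chase no filter gave 3 calls, limma a median of 0.14, length removed -0.53 and GC removed -0.022. For sarm1ko, limma called 10 (median -0.88, Herc2 -0.84). Removing length gave a median of -1.32, with Crebbp -0.25, Sptbn1 -0.32, Herc1 -0.34 and Herc2 -0.29. Removing GC gave 8 calls (median 0.49), with Spen 0.48, Arid1a 0.18, Nisch 0.047, Adgrb2 0.10 and Prrc2a 0.22. Removing both gave 10, with Ank3 -0.11, Macf1 -0.19, Sptbn1 -0.75, Herc1 -0.90, Usp9x -0.53 and Nf1 -0.57. All 5 wild type libraries gave 5, and the 4-day chase as control a median of 0.41. For age in EU limma called 2, length removed 0 (median 0.32) and all 5 libraries 0. For age in TRAP no filter called 4 and DESeq2 1, with medians of 0.64 (limma) and -0.17 (length removed). At 8 weeks no filter and DESeq2 called 1 each. For fmr1ko in EU the counts were 2 (RLE), 10 (no filter), 13 (DESeq2), 2 (limma, median -1.01), 0 (length removed, median -0.83), 0 (no ribosomal genes), 2 (GC removed), 0 (both removed) and 0 (all 5 libraries). For fmr1ko in TRAP DESeq2 called 9 and all 5 libraries 2, and removing length gave a median of -0.049 and Fmr1 0.27. In FACS DESeq2 called 3, removing length gave a median of 0.32, removing GC Fmr1 0.023, and removing both a median of 0.14 and Fmr1 0.091. For the change of the ratio with age no filter called 1, limma gave a median of 0.65 and removing both trends -0.27. For its change with the fmr1ko label DESeq2 called 9 and removing both trends left 3. The cause of these shifts was not tested. Counts in this paragraph come without the share of all genes called and describe only how calls depend on the fit.

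Leaving out 1 library at a time gave 5 to 17 calls at P14, 8 to 17 at P10 (median -1.32 to -1.02), 5 to 18 for SC against immunopanned EU, 10 to 29 for sarm1ko, 0 to 6 for age in EU, 0 to 10 at 8 weeks, 0 to 15 for fmr1ko in EU, 0 to 2 for fmr1ko in TRAP (Fmr1 -2.29 to 0.51) and 0 to 12 for the ratio under the label. The chase median was -0.40 to -0.10. Counts of these leave-out fits come without the share of all genes called and describe only how calls depend on the fit. The replicate block was fitted only in the comparisons checked for pairing, although the numbers gave none. It called 10 at P10 and 0 for fmr1ko in EU, and changed no other count by over 1.5 times. As a hint from the data, at most 4 of 6 libraries correlated best with their own number in any comparison checked. Under limma on log2(TPM + 1) the split of all genes called higher and lower became 1377 and 1320 at P14 (933 and 1391 in edgeR), 682 and 2377 at P10 (1045 and 1735), 789 and 3336 in the LGN and SC libraries (1002 and 1630), 4864 and 1075 against immunopanned EU (1659 and 1749), 1531 and 4016 for sarm1ko (2860 and 3567), 141 and 302 for age in EU (192 and 214), 262 and 236 for fmr1ko in EU (139 and 53) and 314 and 120 for the ratio under the label (462 and 576, and 1742 and 1388 in DESeq2). Its shift of the all-gene median reached 0.90 against immunopanned EU, and that of RLE size factors -0.17 in the LGN and SC libraries. Depth limits the lowest members, such as Kmt2d in SC EU (median 1.01 TPM) and Ep300 in SC TRAP (0.396 TPM).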
